A study of Mus musculus with 6 samples.

Results

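Genes of the integrated stress response, 10 in number, were followed in primary cortical cell cultures treated with 10HDA. They are Atf4, Atf5, Atf3 and Ddit3, which encode transcription factors (Ddit3 encodes CHOP), and Trib3, Chac1, Sesn2, Ddit4, Stc2 and Nupr1, which are known targets or modulators of these factors. The genes were chosen by name, with their behaviour under 10HDA in these data already known, and every one of the 10 symbols matched 1 row among the 43346 rows of the count table. Their difference between 10HDA and vehicle is therefore given as a description, without a test.

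The libraries came from primary cortical cell cultures of mouse embryos at gestational day 15.5. By the labels every library is of strain Cyp19-EGFP and genotype SRY+, although C57BL/6 is the strain given in the methods. Cultures 1, 3 and 4 each gave 1 library after vehicle (DMSO) and 1 after 1 mM 10HDA, so that there were 3 libraries per treatment. 10HDA is trans-10-hydroxy-2-decenoic acid, a fatty acid of royal jelly that the study examined as an estrogenic compound, and the time of treatment is not given in the sources used here. The methods describe coverslips coated with poly D-lysine for the cultures that were stained, and give no separate growth surface for these libraries. Each library is a bulk of all cells in a culture.

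In the integrated stress response, kinases that sense amino acid shortage, misfolded protein in the endoplasmic reticulum (ER), viral RNA or heme deficiency phosphorylate the translation factor eIF2. General protein synthesis then falls while the mRNA of Atf4 is translated more, because short open reading frames at its start otherwise divert ribosomes. ATF4 protein switches on genes of amino acid uptake and synthesis together with CHOP, and the pair can turn on genes of cell death when stress persists. The level of ATF4 is thus set largely at translation, which counts of mRNA do not measure.

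The genes lie on 7 chromosomes, in GENCODE M21 coordinates on GRCm38, and all 10 are annotated as protein-coding. Trib3 (ENSMUSG00000032715.9, chr2:152337422-152344032, minus strand) and Chac1 (ENSMUSG00000027313.3, chr2:119351229-119354381, plus) share chromosome 2. Ddit3 (ENSMUSG00000025408.11, chr10:127290774-127296288, plus) and Ddit4 (ENSMUSG00000020108.3, chr10:59949669-59951834, minus) share chromosome 10. Atf5 (ENSMUSG00000038539.10, chr7:44812256-44816658, minus) and Nupr1 (ENSMUSG00000030717.5, chr7:126623249-126630861, minus) share chromosome 7. Atf4 (ENSMUSG00000042406.7) is at chr15:80255184-80257541 on the plus strand and Atf3 (ENSMUSG00000026628.9) at chr1:191170296-191218039 on the minus strand. Sesn2 (ENSMUSG00000028893.8) is at chr4:132492032-132510501 and Stc2 (ENSMUSG00000020303.2) at chr11:31357307-31370074, both on the minus strand. None of them has a neighbour among the other 9 within its own bounds, so that their counts come from separate places in the genome.

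ATF4 binds DNA as a dimer with C/EBP proteins at a composite element whose core reads TGATGNAA, where N is any base. This core was searched on both strands in the reference promoters of the 10 genes (RefSeq, GRCm38.p6, 250 bases before to 50 bases after the annotated start). It was found for 4 of the 10 genes, namely Trib3, Chac1, Atf3 and Nupr1, and in 3.97% of 32851 promoters of that length, or for 4.51% of 27025 genes. The 30 bases around each match are shown 5′ to 3′ on the strand of the gene, with the core in capitals, because they differ at the N and in their distance from the start. All 4 cores lie on the strand opposite to the gene, so that they read here as the reverse complement.
Chac1: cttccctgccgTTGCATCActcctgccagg
Trib3: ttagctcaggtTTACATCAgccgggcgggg
Atf3: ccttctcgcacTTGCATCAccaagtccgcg
Nupr1: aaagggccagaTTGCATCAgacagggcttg

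The core of Chac1 covers bases -193 to -186 before its start (chr2:119351049-119351056, gene on the plus strand). In both Atf3 (chr1:191183436-191183443, minus strand) and Nupr1 (chr7:126625573-126625580, minus strand) it covers bases -110 to -103. That of Trib3 lies after the RefSeq start, at bases 15 to 22 (chr2:152344039-152344046, minus strand). On its own strand the core of Trib3 reads TGATGTAA and that of the other 3 reads TGATGCAA. The 250 bases before the start of Chac1 (chr2:119350992-119351241, plus strand) show the core in its setting.
Chac1 upstream: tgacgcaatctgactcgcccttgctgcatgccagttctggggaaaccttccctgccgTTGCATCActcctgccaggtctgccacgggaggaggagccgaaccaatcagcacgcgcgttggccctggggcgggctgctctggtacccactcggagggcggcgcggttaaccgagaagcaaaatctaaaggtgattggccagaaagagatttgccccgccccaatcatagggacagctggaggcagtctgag

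A second motif, TGACGT, which is part of the cyclic AMP response element bound by ATF and CREB proteins, was found for Atf3 alone among the 10 genes, at bases -8 to -3, and for 8.37% of all genes. The ER stress element, to which ATF6 binds with NF-Y, was found for none of the 10 and for 0.137% of all genes. These are matches of letters in a short window, and sites outside it were not searched.

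Libraries held from 9144736 to 13367194 counts, and 3 counts correspond to 0.224 to 0.328 CPM, a limit that covers counting error only. Levels are CPM, that is counts relative to the library total after TMM correction. Both libraries of culture 1 go against the SRY+ label. There, 4 genes of the Y chromosome (Uty, Kdm5d, Eif2s3y, Ddx3y) had a summed level of 8.87 CPM under vehicle and of 9.10 CPM under 10HDA, while cultures 3 and 4 lay between 95.7 and 133 CPM. Culture 1 also had the highest levels of Xist, 1010 and 1413 CPM, where the remaining libraries held 394 to 825 CPM. Cultures 3 and 4 thus held Xist beside the Y-linked transcripts, and leaving out culture 1 does not leave libraries free of Xist. Because each culture holds both treatments, ratios within cultures 3 and 4 are given beside each value, and fold changes are also given without culture 1.

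The 10 genes covered a wide range of levels with vehicle. Compared per kilobase of the gene length in the count table, Atf4 was the most abundant, at 184 ± 20.1 CPM per kb (SD, n = 3), followed by Atf5 at 60.9 ± 8.06 and Ddit4 at 57.9 ± 19.8. Sesn2 was at 16.0 ± 1.53, Chac1 at 16.0 ± 1.66, Ddit3 at 11.8 ± 0.0464 and Stc2 at 6.61 ± 0.187 CPM per kb. Trib3 was low, at 1.82 ± 0.340 CPM per kb, and Nupr1 (0.406 ± 0.0514) and Atf3 (0.298 ± 0.0823) were close to the limit of counting. In this order the vehicle libraries of Atf5 and Ddit4, of Sesn2 and Chac1, and of Nupr1 and Atf3 overlapped, and all other neighbours were apart in all 3 libraries.

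**Figure D1:**
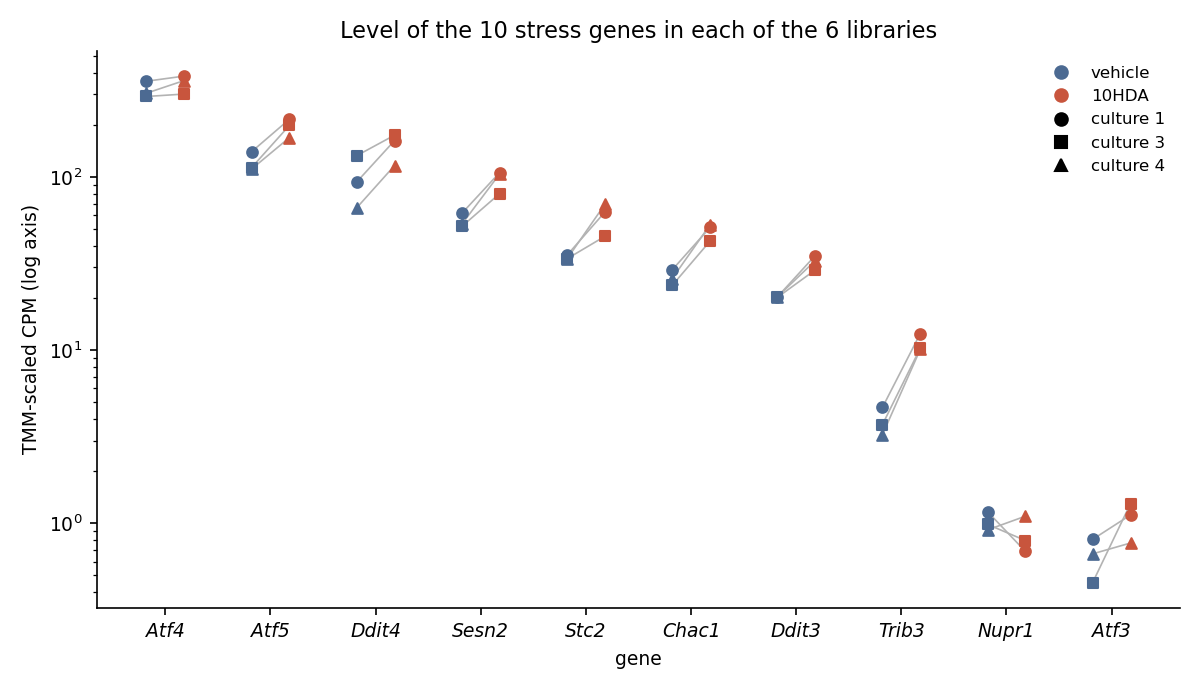
TMM-scaled CPM (log axis) of the 10 genes in each library, with vehicle in blue and 10HDA in red, 1 marker shape per culture and a line joining the libraries of a culture. The lines of Trib3 climb from 3.24 to 4.66 CPM with vehicle to 10.1 to 12.4 CPM with 10HDA, while those of Atf4 and Nupr1 stay within overlapping ranges.

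Every 10HDA library was above every vehicle library for 6 of the genes, namely Trib3, Chac1, Sesn2, Ddit3, Atf5 and Stc2, and the groups of Atf4, Atf3, Ddit4 and Nupr1 overlapped. Among the 19623 genes with at least 10 counts over the 6 libraries, 6.51% were higher in this sense and 6.82% lower. The median log2 fold change of the 10 genes was 0.73, and that of the 19623 genes was 0.011. The fold changes and standard errors of the 10 genes below come from edgeR's quasi-likelihood fit to these 19623 genes, which holds all of them.

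Atf4 itself, the hub of the response, was at 357, 292 and 305 CPM with vehicle and 383, 301 and 361 CPM with 10HDA, in cultures 1, 3 and 4. The groups overlapped, and culture 3 was the lowest in both. Its log2 fold change was 0.14 ± 0.12 (SE), with log2 ratios of 0.099, 0.047 and 0.24 within the 3 cultures and 0.16 without culture 1.

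Ddit3 encodes CHOP, a bZIP factor that ATF4 induces and that acts with it. It was even across the vehicle libraries, at 20.2, 20.1 and 20.3 CPM, and stood at 35.1, 29.0 and 32.8 CPM with 10HDA. The vehicle values rest on 226, 266 and 244 counts, and they lie closer together than counting error alone would leave them. Every 10HDA library was above every vehicle library. The log2 fold change was 0.69 ± 0.13, with 0.79, 0.53 and 0.69 in cultures 1, 3 and 4, and 0.62 without culture 1. The gene overlaps Mars, the methionyl tRNA synthetase gene, by 68 bases on the opposite strand (GRCm38). Mars had 11686 counts over the 6 libraries, and whether reads were assigned by strand is not given in the sources used here. A second GENCODE M21 entry named Ddit3 (ENSMUSG00000116429.1) overlaps the gene by 2925 bases on the same strand and is not in the count table.

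Atf5, a bZIP factor that shares with Atf4 the control of its translation by eIF2, was at 140, 113 and 111 CPM with vehicle. With 10HDA it was at 216, 199 and 169 CPM in cultures 1, 3 and 4. All 10HDA libraries were higher, with a log2 fold change of 0.69 ± 0.13, ratios of 0.62, 0.81 and 0.60 in the 3 cultures, and 0.72 without culture 1. Atf5 overlaps Il4i1 on the opposite strand by 272 bases, a gene with 215 counts over the 6 libraries.

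Atf3, an early stress factor downstream of ATF4, rested on few counts, 9, 6 and 8 with vehicle and 13, 18 and 7 with 10HDA. Its levels were 0.806, 0.454 and 0.665 CPM with vehicle and 1.12, 1.30 and 0.768 CPM with 10HDA. The groups overlapped, and the log2 fold change of 0.78 ± 0.40 had the largest standard error of the 10 genes. Its log2 ratios were 0.45, 1.44 and 0.22, and the fold change was 0.94 without culture 1.

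Trib3, a pseudokinase that CHOP and ATF4 induce and that represses both, showed the highest ratio of the 10 genes. It was at 4.66, 3.71 and 3.24 CPM with vehicle and at 12.4, 10.2 and 10.1 CPM with 10HDA. No library of one treatment came near the other, and the mean with 10HDA was 2.82 times that with vehicle. The log2 fold change was 1.51 ± 0.20, the ratios in cultures 1, 3 and 4 were 1.41, 1.46 and 1.63, and the value without culture 1 was 1.55. Trib3 reached 10 CPM in the 3 libraries with 10HDA and in 0 with vehicle.

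Chac1, an enzyme that degrades glutathione and is a target of ATF4, was at 29.0, 23.6 and 25.8 CPM with vehicle and at 51.1, 42.6 and 52.9 CPM with 10HDA. The groups were apart, with culture 3 lowest in both. The log2 fold change was 0.91 ± 0.13 with ratios of 0.81, 0.85 and 1.03 by culture, and 0.95 without culture 1. This is the gene whose upstream sequence is printed above.

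Sesn2 and Ddit4 both restrain mTORC1, the kinase complex that drives protein synthesis when amino acids are ample. Sesn2 was at 61.6, 51.8 and 53.4 CPM with vehicle and at 106, 80.2 and 104 CPM with 10HDA, with no overlap. Its log2 fold change was 0.81 ± 0.13, with 0.78, 0.63 and 0.97 by culture and 0.82 without culture 1. Sesn2 contains Gm12981, a gene on the same strand with 15 counts over the 6 libraries. Ddit4 varied far more between cultures, at 93.5, 133 and 66.3 CPM with vehicle and at 162, 174 and 116 CPM with 10HDA. Its groups overlapped, since culture 3 with vehicle was above culture 4 with 10HDA, yet 10HDA was the higher within each culture. Its log2 fold change was 0.64 ± 0.20, with ratios of 0.79, 0.39 and 0.81 and a value of 0.56 without culture 1.

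Stc2, a secreted glycoprotein induced by ER stress, was at 35.3, 33.7 and 33.6 CPM with vehicle and at 62.7, 45.4 and 69.4 CPM with 10HDA. The vehicle libraries were close together and the 10HDA libraries spread, with culture 3 lowest. The log2 fold change was 0.80 ± 0.14, with ratios of 0.83, 0.43 and 1.05 and a value of 0.77 without culture 1. Nupr1, a small chromatin protein of the stress response, was at 1.16, 0.984 and 0.914 CPM with vehicle and at 0.687, 0.793 and 1.10 CPM with 10HDA, from 8 to 13 counts per library. It was the gene of the 10 with a negative log2 fold change, -0.26 ± 0.36, and the ratios of -0.73, -0.30 and 0.27 differed in sign between cultures. Without culture 1 the value was -0.033.

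**Figure D2:**
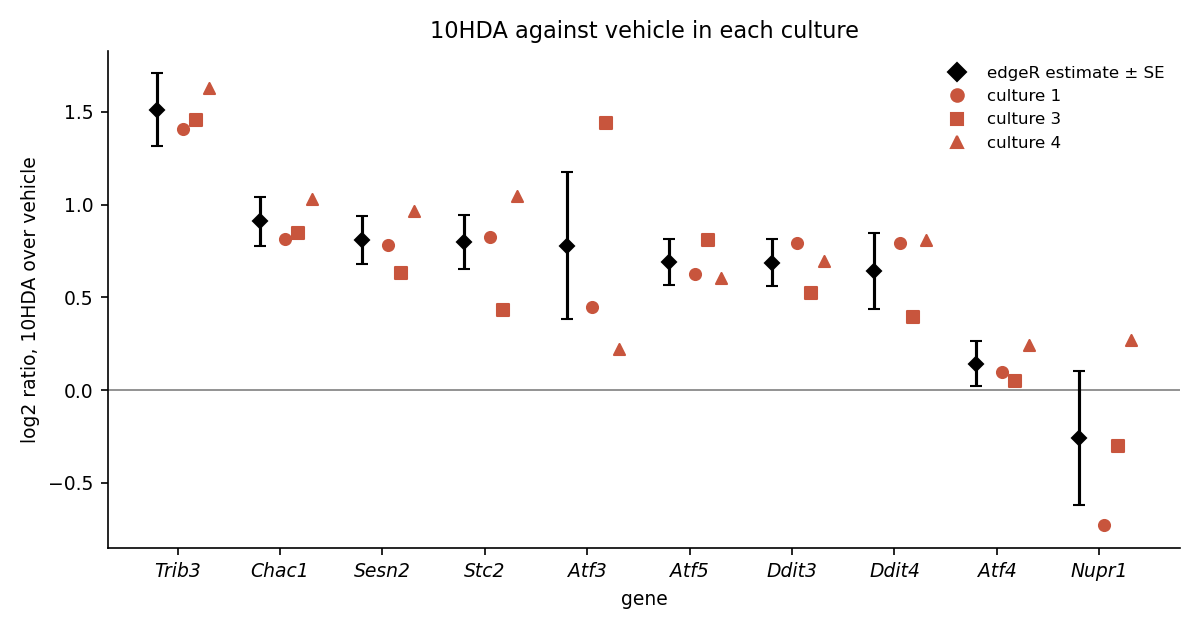
Log2 ratio of 10HDA over vehicle for the 10 genes, with the edgeR estimate and its standard error as a black diamond and bar and the ratio within each culture in red. Trib3 lies between 1.41 and 1.63 in the 3 cultures, 9 genes are above 0 in every culture, and Nupr1 is above 0 in 1 culture.

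As ratios of mean CPM, Trib3 was 2.82 times as high with 10HDA as with vehicle, Chac1 1.87 times, Sesn2 1.74 times, Stc2 1.73 times, Atf3 1.65 times, Atf5 1.60 times, Ddit3 1.60 times, Ddit4 1.55 times and Atf4 1.10 times. Nupr1 was at 0.842 times its vehicle mean. Among these Trib3 stood apart, with its lowest ratio within a culture (1.41 in log2) above those of every other gene but Atf3 in culture 3 (1.44). Culture 3 had the lowest ratio of the 3 for Sesn2, Ddit3, Atf4, Ddit4 and Stc2, and the highest for Atf5 and Atf3. Culture 4 had the highest ratio for Trib3, Chac1, Sesn2, Atf4, Ddit4, Stc2 and Nupr1.

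In the comparison across all 10520 genes that reached 10 CPM in 3 or more libraries, 21 genes (0.2%) were higher with 10HDA and 45 (0.428%) were lower at an adjusted p under 0.1 by edgeR's quasi-likelihood test (22 and 27 when scaled by library size alone). At an unadjusted p under 0.05 by the same test there were 1059 of the 10520 genes. Atf3 and Nupr1 did not pass the filter on low counts, and Trib3 passed it only through the 10HDA libraries. Of the 8 that passed, Trib3, Chac1, Sesn2, Ddit3, Atf5 and Stc2 were among the 21, which is how they were chosen and is not a separate result. With culture as a block 945 genes (8.98%) passed, 411 (3.91%) of them higher and 534 (5.08%) lower, and Ddit4 was added as the 7th of the 10. Without culture 1 the number past the threshold fell from 66 genes (0.627%) to 3, among them Trib3 and no other of the 10.

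Within a treatment, the genes also differed between cultures. Trib3, Chac1, Sesn2, Ddit3, Atf4 and Stc2 were above the mean of their treatment in culture 1 and below it in culture 3. This held with vehicle as with 10HDA, though the vehicle deviations were at most 0.047 for Stc2 and 0.007 for Ddit3. For Sesn2 the deviations were 0.15 and -0.10 on the log2 scale with vehicle and 0.14 and -0.26 with 10HDA. Ddit4 followed another order, being highest in culture 3 (0.50 with vehicle, 0.23 with 10HDA) and lowest in culture 4 (-0.50 and -0.35). Ddit3 deviated by at most 0.007 among the vehicle libraries and by up to 0.15 among the 10HDA libraries. The former is less than counting error alone would give, so it does not show a steadier level with vehicle.

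**Figure D3:**
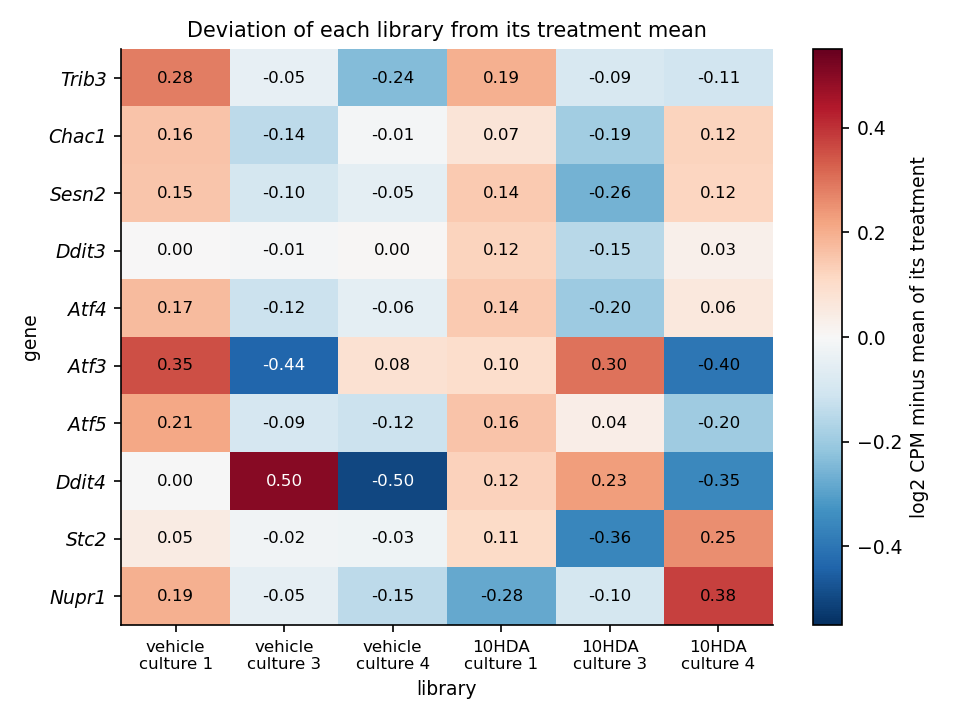
Log2 CPM of each gene and library minus the mean of its treatment, with libraries in columns, genes in rows, red above and blue below the mean. The row of Ddit4 is red in culture 3 (0.50 and 0.23) and blue in culture 4 (-0.50 and -0.35) under both treatments, unlike those of Chac1 and Sesn2.

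The pattern of each gene over the 6 libraries was compared with those of all tested genes by the root mean square difference of log2 CPM, each gene centred on its mean, a measure that takes in both treatment and culture and for which all genes share the same 6 libraries. Because the 10 genes were chosen with their difference between treatments known, nearness among them follows in part from that choice and is not a separate result. Chac1 and Sesn2 were nearer to each other (0.0709) than any tested gene outside the 10 was to either. Stc2 lay nearest to Sesn2, at 0.0905. The tested gene nearest to Ddit3 was Fibcd1 (0.0416), which encodes a chitin-binding membrane protein, followed by Trim66, Pycr1, Eif4ebp1 and Ntpcr, at 0.0959 to 0.110.

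Outside the 10 genes, the tested genes nearest to Trib3 were Bbc3, Srxn1, Slc7a3, Cyb5r1 and Gsta4, at 0.318 to 0.352. Their log2 fold changes ran from 0.88 to 1.11, below the 1.51 of Trib3, and Chac1 lay among them at 0.340. With the 10 genes again left out, those nearest to Chac1 were Srxn1 and Hmox1, to Sesn2 Dhrs7 and Fibcd1, to Stc2 Fibcd1 and Dhrs7, and to Atf5 Pck2 and Cd151. In the same way Ddit4 had Gm11353 and Hnrnpa0 as its nearest, Atf4 had Arl6 and Mphosph6, Atf3 had Plekhh3 and Rcc1l, and Nupr1 had Lynx1 and Gm10259.

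Other genes of the pathway were counted in lists written by hand, with earlier results of these data known. Counts over these lists are therefore a description and not separate evidence for the 10 genes. In all, 3 of the lists hold 51 known targets of ATF4 and CHOP outside the 10 genes, for amino acid supply, for charging of tRNA, and for other roles. Of the 45 that were tested, 39 had a positive and 6 a negative log2 fold change, with a median of 0.23, against -0.0095 over all 10520 genes, of which 5034 were positive. At an adjusted p under 0.1, 4 rose and 1 fell. In 18 of the 45 every 10HDA library was above every vehicle library, and in 1 every one was below, where the shares among all 10520 genes were 5.96% and 7.44%. With culture as a block 16 rose and 2 fell, where 3.91% of all 10520 genes rose and 5.08% fell. Without culture 1 none passed, with a median of 0.24 and 18 at an unadjusted p under 0.05, beside 706 of all 10520 genes.

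Of the 22 tested genes of amino acid supply, Slc7a3 and Pycr1 rose and Cbs fell. Slc7a3, a transporter of cationic amino acids, was at 89.7, 82.3 and 59.4 CPM with vehicle and at 155, 157 and 118 CPM with 10HDA (log2 fold change 0.89 ± 0.16, adjusted p = 0.0497 by edgeR's quasi-likelihood test). Pycr1, which makes proline, went from 30.4, 28.4 and 24.3 CPM to 48.3, 39.2 and 42.7 CPM (0.65 ± 0.13, adjusted p = 0.0701). Cbs, the first enzyme of transsulfuration and also abundant in astrocytes, went from 28.7, 23.5 and 24.5 CPM to 14.5, 15.4 and 17.6 CPM (-0.69 ± 0.14, adjusted p = 0.0721). Scaled by library size alone, Cbs did not pass (-0.62 ± 0.14, adjusted p = 0.142), and the list had 3 genes called higher and 0 lower.

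The median log2 fold change of the amino acid list was 0.30, with 19 genes positive and 3 negative. Asns, asparagine synthetase and a much used marker of ATF4 activity, was at 314, 239 and 269 CPM with vehicle and at 341, 295 and 327 CPM with 10HDA, and the groups overlapped (0.23 ± 0.12, adjusted p = 0.53). Slc7a11, the cystine transporter, had a negative value, -0.79 ± 0.24 (adjusted p = 0.296, and 8.58e-06 with culture as a block). With the block 10 genes of this list rose and 2 fell, beside 3.91% and 5.08% of all 10520 genes.

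Of the 13 genes that charge or export tRNA, 12 had a positive fold change and none passed the threshold without the block, with 3 at an unadjusted p under 0.05. Their median was 0.14. Lars, the leucyl tRNA synthetase, had the smallest p (0.37 ± 0.10, adjusted p = 0.239), followed by Xpot, the tRNA exporter (0.31 ± 0.10, adjusted p = 0.311). Both passed with the block, at adjusted p of 0.0154 and 0.0542.

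Of the 10 tested genes of the list of other targets, Bbc3 and Eif4ebp1 rose. Bbc3 encodes PUMA, a trigger of apoptosis induced by p53 and by CHOP, and went from 33.2, 32.1 and 25.7 CPM to 62.6, 51.1 and 54.1 CPM (0.88 ± 0.13, adjusted p = 0.0347). Eif4ebp1, a repressor of translation initiation, went from 18.6, 15.1 and 18.6 CPM to 32.2, 25.1 and 28.7 CPM (0.72 ± 0.14, adjusted p = 0.0789). Neither passed without culture 1, where the adjusted p-values were 0.174 and 0.41.

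**Figure D4:**
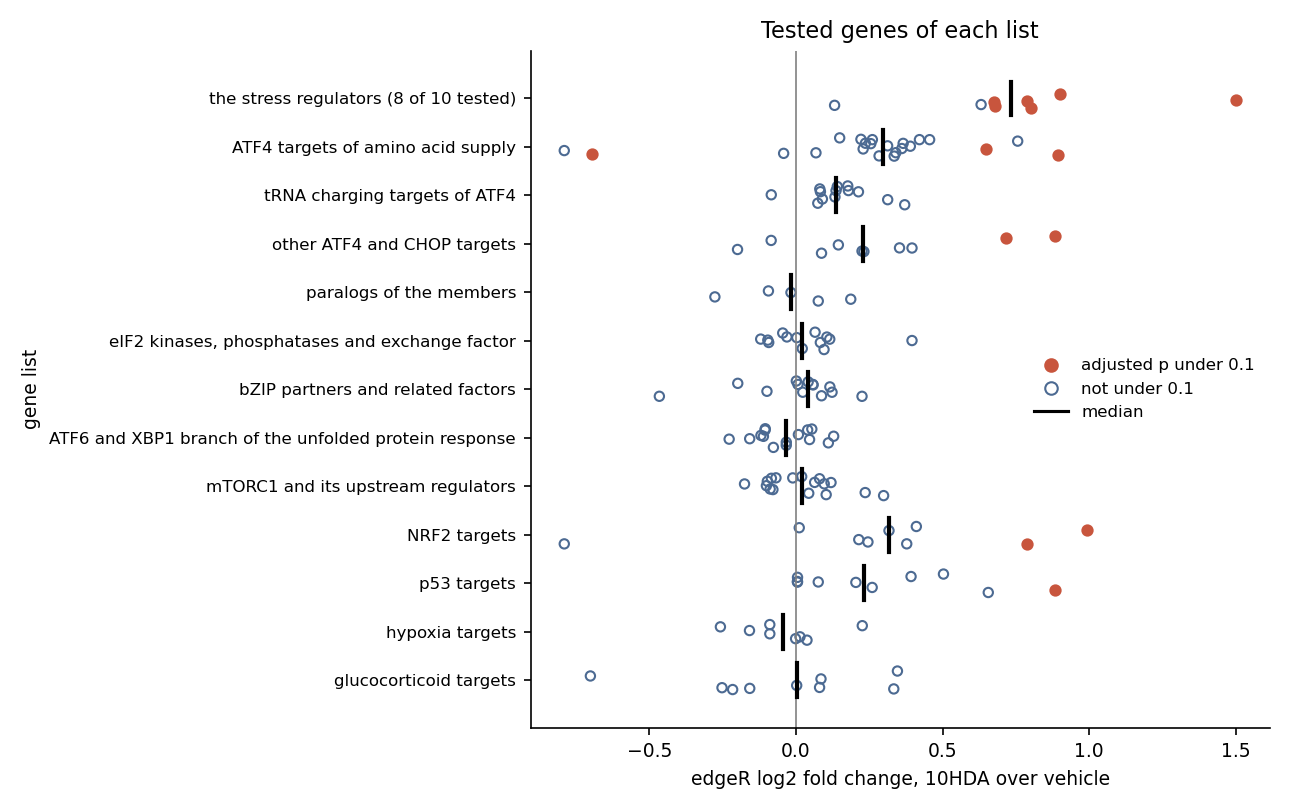
Log2 fold change of 10HDA over vehicle for the tested genes of each list, 1 point per gene, filled where the adjusted p of edgeR's quasi-likelihood test was under 0.1, with a bar at the median. The top row holds the stress regulators, chosen on this contrast, with a median of 0.73. The medians of the 3 lists of ATF4 targets are 0.30, 0.14 and 0.23, and those of the NRF2 and p53 targets are 0.32 and 0.23. The ER folding, eIF2 and mTORC1 rows centre near 0.

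Paralogs of the 10 genes, which come from the same families, were compared next. Of 8 paralogs 5 were tested, none passed the threshold, with 0 at an unadjusted p under 0.05, and their median was -0.017. Log2 fold changes were -0.28 ± 0.14 for Trib1, -0.02 ± 0.11 for Trib2, 0.08 ± 0.12 for Sesn1, -0.09 ± 0.24 for Sesn3 and 0.19 ± 0.20 for Stc1. Chac2, Nupr1l and Ddit4l were below the filter. Ddit4l, which like Ddit4 restrains mTORC1, was at 2.42, 1.89 and 2.58 CPM with vehicle and at 4.21, 4.62 and 5.27 CPM with 10HDA (1.04 ± 0.23, adjusted p = 0.103 in the fit to 19623 genes, and 0.00782 with culture as a block). The values of Chac2 were 7.85 and 8.24 CPM on average, and those of Nupr1l 0.568 and 0.706 CPM.

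Upstream, 13 of the 15 genes for eIF2, its kinases, phosphatase subunits and exchange factor were tested, and none passed the threshold. The median was 0.021 and 1 was at an unadjusted p under 0.05. That gene was Ppp1r15a, which encodes GADD34, the stress-induced subunit that returns eIF2 to its active form, at 29.4, 24.3 and 29.4 CPM with vehicle and 38.0, 30.6 and 40.9 CPM with 10HDA (0.40 ± 0.14, adjusted p = 0.385, and 0.0311 with culture as a block). Eif2ak1, the heme-regulated kinase, had -0.12 ± 0.10 (adjusted p = 0.692). The kinases of ER stress and of amino acid shortage, Eif2ak3 and Eif2ak4, were at -0.03 ± 0.14 and 0.02 ± 0.12.

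Of the 23 bZIP partners and related factors 13 were tested and none passed, with a median of 0.041 and 1 at an unadjusted p under 0.05. Jun, a subunit of AP-1, went from 78.4, 68.2 and 71.2 CPM to 43.4, 58.0 and 56.2 CPM (-0.47 ± 0.13, adjusted p = 0.234, and 0.0118 with culture as a block). Cebpg, a common dimer partner of ATF4, had 0.23 ± 0.10 (adjusted p = 0.5). Cebpb, the partner of ATF4 and CHOP, lay under the filter, at 1.61, 2.42 and 1.33 CPM with vehicle and 5.58, 4.54 and 3.07 CPM with 10HDA (1.31 ± 0.29, adjusted p = 0.11 in the fit to 19623 genes, and 0.00299 with culture as a block), and was named after its values were seen.

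The ATF6 and XBP1 branches, which raise chaperones and folding enzymes under ER stress, were represented by 16 genes. Of the 15 tested none passed, 0 were at an unadjusted p under 0.05, and the median was -0.033, with 6 positive and 9 negative. Calr and Manf had the smallest p, with -0.23 ± 0.12 (adjusted p = 0.53) and -0.16 ± 0.10 (adjusted p = 0.594). The mTORC1 list, to which Sesn2 and Ddit4 belong by function, had 17 of its 19 other genes tested and none past the threshold, with 2 at an unadjusted p under 0.05 and a median of 0.019. Rheb and Seh1l had the smallest p, with 0.30 ± 0.11 (adjusted p = 0.403) and 0.24 ± 0.11 (adjusted p = 0.488). With culture as a block Rheb, the GTPase that activates mTORC1, passed (0.29 ± 0.10, adjusted p = 0.0729), and it was the 1 gene of the list to do so. The DESeq2 Wald test and limma-voom also called none of the tested genes of the paralog, eIF2, ATF6 and XBP1, and mTORC1 lists. DESeq2 called Jun lower and Lars higher, 1 gene each of the bZIP and tRNA lists, where limma-voom called none.

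Targets of NRF2, the regulator of the oxidative stress response, and of p53 share genes with the ATF4 lists. Of 9 tested NRF2 targets 8 had a positive log2 fold change, with a median of 0.32, and Srxn1 (0.99 ± 0.13, adjusted p = 0.0149 by edgeR's quasi-likelihood test) and Hmox1 (0.79 ± 0.16, adjusted p = 0.0853) rose, though not without culture 1 (0.169 and 0.396). All 10 tested p53 targets had a positive value, with a median of 0.23, and Bbc3 was the 1 that passed. With the block 5 NRF2 targets rose and 1 fell, and 4 p53 targets rose, where 3.91% of all 10520 genes rose and 5.08% fell.

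Markers of cell types moved between the treatments as well. In the 10 astrocyte markers, summed, the vehicle libraries ranged from 1248 to 1523 CPM and the 10HDA libraries from 946 to 1162 CPM. Of the 9 tested 8 were lower, and Gfap, Aldh1l1, Aldoc and Clu fell. Gfap, the filament protein of astrocytes, went from 82.8, 63.9 and 101 CPM to 23.6, 37.7 and 40.9 CPM (-1.28 as log2 fold change, adjusted p = 0.0428 by edgeR's quasi-likelihood test). With culture 1 left out, or the vehicle library of culture 3 or the 10HDA library of culture 1, 0 astrocyte markers were called, and 1 was without the vehicle library of culture 4. None of these markers was at 0. The 10 neuronal markers summed to 8492 to 8952 CPM with vehicle and 7008 to 7986 CPM with 10HDA, with 9 of 10 lower and none past the threshold, 5 at an unadjusted p under 0.05, and 2 called lower by DESeq2 and 0 by limma-voom. With culture as a block 5 of the 10 were called lower, as were 5.08% of all 10520 genes.

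Markers of endothelial cells and pericytes summed to 17.5 to 18.9 CPM with vehicle and 8.07 to 11.1 CPM with 10HDA, and those of meningeal fibroblasts to 93.2 to 150 and 34.3 to 72.6 CPM, with 1 of its 8 markers at 0 in every library. The 8 markers of microglia summed to 0.914 to 1.16 and 0.793 to 1.21 CPM, which is near the limit of counting. Markers of the oligodendrocyte lineage summed to 347 to 430 and 263 to 371 CPM, those of radial glia to 772 to 938 and 713 to 798 CPM, those of intermediate progenitors to 64.5 to 78.2 and 93.4 to 119 CPM, and those of dividing cells to 187 to 228 and 183 to 241 CPM. Cspg4, 1 of the 7 tested oligodendrocyte markers, and Pdgfrb, the 1 tested marker of endothelial cells and pericytes, fell, by 0.92 and 1.07 on the log2 scale (adjusted p = 0.0428 for each by edgeR's quasi-likelihood test). Neither passed without culture 1. With culture as a block 3 oligodendrocyte markers were called lower, among them Pdgfra, which is also the 1 tested marker of meningeal fibroblasts. In the same fit 1 marker of radial glia was called in each direction. Over all 10520 genes the shares with the block were 3.91% higher and 5.08% lower. Of the 3 tested markers of intermediate progenitors 0 passed, while 2 were called higher with the block and by DESeq2. The part of these shifts in the values of the 10 genes was not tested. In bulk RNA, fewer cells of a type and less RNA per cell cannot be told apart.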

How the data were processed

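Total RNA of 6 libraries was made into strand-specific libraries and sequenced with single-end reads. Untrimmed reads were mapped by the authors with the Subjunc aligner of Subread 1.4.4 on mm10 and assigned by featureCounts to Gencode models. The deposited values are raw counts per gene, and the strand setting is not given in the sources used here. Symbols were taken from GENCODE M21, which matched 98.0% of the identifiers, and 0 sample columns were left out.

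The members and lists were chosen with earlier results of these data known. The 10520 genes that reached 10 CPM in 3 or more libraries were compared with edgeR 4.0.16 (TMM, glmQLFit and glmQLFTest, R 4.3.3). The threshold was 0.1 after Benjamini-Hochberg adjustment, as in the methods of the paper, and the fit was without a culture term. Fold changes of the 10 genes come from the same fit on genes with at least 10 counts summed (19623), a filter that keeps all of them, and standard errors are in log2. Log2 CPM was taken after adding 0.5 to each count. The biological coefficient of variation was 0.116, or 0.0849 with culture as a block. Each p-value weighs the difference of 3 libraries against 3 by the variation between libraries of a treatment. Without the block that variation includes the differences between these cultures.

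Culture numbers in the labels pair the libraries. As a check, deviations from treatment means correlated across 10520 genes at 0.369, 0.236 and 0.616 within cultures 1, 3 and 4 and at -0.448 to 0.182 between cultures. The alternatives in scaling were size factors of the kind DESeq2 uses, computed by edgeR, upper quartile scaling and library size alone. Those in model and test were the culture block, the DESeq2 1.42.0 Wald test and limma-voom (limma 3.58.1). Other filters, a threshold of 0.05, each library left out and culture 1 left out were run as well. On simulated data 200 of 200 genes changed by a log2 of 1 were recovered among 10520, with 18 false calls. The simulation gave every gene the same biological spread and no difference between cultures. It therefore checks that the fit runs as intended and does not measure recovery in these libraries. Genes named are the 10, their paralogs, those of a list past the threshold or the 2 with the smallest p, and those nearest in pattern (5 for Trib3 and Ddit3, 2 for the others). Asns, Slc7a11, Eif2ak3, Eif2ak4, Cebpb and the markers were named besides, after their values were seen. Promoter sequences are from RefSeq (GRCm38.p6), matched by symbol for all 10 genes, and the last bases of each window were found in a GENCODE M21 transcript of its gene.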

Additional observations from a re-analysis of the deposited data

How the results depend on the processing

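The median log2 fold change of the 10 genes kept its size under every alternative run, from 0.69 to 0.80 over scaling, filter and test and from 0.67 to 0.82 with each library left out. The filter of the main comparison, at least 10 CPM in 3 libraries, gave 0.73 for the 8 genes it keeps. Its use for this median was added after seeing the data. All 147 fold changes of the single genes kept their sign, and 144 moved by less than the SD of the gene's log2 ratios over the 3 cultures. That limit is wide for Atf3, with ratios from 0.22 to 1.44, and for Nupr1, with ratios from -0.73 to 0.27. The number past the threshold was 6, from 5 to 7 under other scalings, filters, tests, the threshold of 0.05 and the culture block, but 1 (Trib3) without culture 1, and 0 to 7 with one library left out. It was 0 without the vehicle library of culture 3 or the 10HDA library of culture 1. Without the vehicle library of culture 4 it was 1. In each of these, 7 of the 8 were at an unadjusted p under 0.05 on the contrast that chose them. Over all 10520 genes the numbers at that p were 1367, 469 and 533, in this order. The count of 7 follows in part from the choice of the genes and is not a separate result.

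Over all tested genes the 66 past the threshold became 945 with culture as replicate block, 170 with the DESeq2 Wald test, 43 at a threshold of 0.05 and 3 without culture 1, and ranged from 0 to 350 with one library left out. The 0 arose without the 10HDA library of culture 1, where edgeR gave 469 genes at an unadjusted p under 0.05. The number was 106, 2 and 7 without the vehicle libraries of cultures 1, 3 and 4 and 29 and 350 without the 10HDA libraries of cultures 3 and 4. Library size alone moved the median of all genes to 0.064 and gave 22 higher and 27 lower, against 21 and 45. Of the listed ATF4 targets 5 passed, against 18 with the block, 10 with the DESeq2 Wald test, 2 at a threshold of 0.05 and 0 without culture 1, and 0 to 9 with one library left out (0 when the vehicle library of culture 3 or 4 or the 10HDA library of culture 1 was dropped, 1 and 9 when the 10HDA library of culture 3 or 4 was). Their median of 0.23 became 0.30 with library size alone and ranged from 0.19 to 0.29 with one library left out. Of 672 values of the 42 other named genes, 585 stayed on their side of the threshold, 57 lost and 30 gained it, and 0 changed direction with a call. The causes of these changes were not tested, and the block changed no other call of the 10 genes. Atf3 and Nupr1, with 6 to 18 counts per library, are limited by depth.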

Other observations

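Ddit4 is also known as a target of hypoxia and of glucocorticoids, and lists for both were counted in the same edgeR fit. Of 12 hypoxia targets 8 were tested and none passed the threshold, with 1 at an unadjusted p under 0.05 and a median log2 fold change of -0.045. Ndrg1, a stress-responsive protein induced by low oxygen, had -0.26 ± 0.11 (adjusted p = 0.483 by edgeR's quasi-likelihood test), and Slc2a1, the glucose transporter GLUT1, had 0.23 ± 0.15 (adjusted p = 0.622).

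Of 11 glucocorticoid targets 9 were tested and none passed, with 2 at an unadjusted p under 0.05 and a median of 0.0023. DESeq2 and limma-voom called none of either list. Klf9, a transcription factor induced by glucocorticoids, went from 11.7, 13.2 and 17.0 CPM to 9.18, 6.85 and 9.98 CPM (-0.70 ± 0.19, adjusted p = 0.232, and 0.00623 with culture as a block), and Tsc22d3, which encodes GILZ, had 0.33 ± 0.15 (adjusted p = 0.475, and 0.0938 with the block).

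Osgin1, an NRF2 target under the filter on low counts, was at 0.358, 0.303 and 0.665 CPM with vehicle and at 1.72, 1.59 and 2.41 CPM with 10HDA (log2 fold change 2.07 ± 0.39, adjusted p = 0.0473 in the edgeR fit to 19623 genes), and was named after its values were seen. The circulating stress hormones Fgf21 and Gdf15, which ATF4 can induce, were near the limit of counting, with means of 0.0299 and 0.214 CPM with vehicle and 0.0813 and 0.410 CPM with 10HDA.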
